A study of Sus scrofa with 3 samples.

Results

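miR-21 and miR-146 are small RNAs of inflammation and tissue repair, and they were followed here in pig psoas major, the muscle of the tenderloin, in pigs aged 63, 98 and 161 d. The members were every mature porcine name that numbers a miRNA as miR-21 or miR-146 in the library files, whatever its letter or arm, and 3 of the 276 porcine mature names detected met this rule: ssc-miR-21, ssc-miR-146a-5p and ssc-miR-146b. All 3 were counted in all 3 libraries. The animals were castrated male crossbred pigs (Landrace × Large White × Duroc) labelled as fattening pigs, and the groups were named D63, D98 and D161 after the day of slaughter. For each age, total RNA of the psoas major of 6 pigs was pooled in equal quantities and made into 1 small RNA library. Each age therefore had no replicate, the spread between pigs was not measured, and every interval given here covers counting error within a library only. Muscle was taken after bleeding and also holds vessels, blood, connective tissue and immune cells, so that fewer cells of a type and less of a miRNA per cell cannot be told apart.

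miR-21 is one of the most widely expressed animal miRNAs. It is made by fibroblasts, endothelium, smooth muscle and leukocytes as well as by muscle cells, it represses PDCD4, SPRY1 and SMAD7, and it is known as a miRNA of fibrosis because TGF-beta signalling promotes its maturation and its targets restrain that pathway. miR-146a is induced by NF-kB after Toll-like receptor or cytokine signals, and miR-146b can rise after such signals too. miR-146a and miR-146b repress IRAK1 and TRAF6, adaptors of the same receptors, in a negative feedback loop. The 2 genes are separate loci whose products are nearly the same.

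The mature forms are shown because the seed, bases 2 to 8 counted from the 5′ end and given in capitals, decides which messages a miRNA can pair with.
ssc-miR-21: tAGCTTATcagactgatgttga
ssc-miR-146a-5p: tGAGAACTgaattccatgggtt
ssc-miR-146b: tGAGAACTgaattccataggc
The miR-146 forms share their seed, and miR-21 has another. Over the 21 bases that both have, miR-146a-5p and miR-146b were the same at 19 bases and differed by G18A and T21C, with the base of miR-146a-5p first and positions counted from the 5′ end. The forms are 22, 22 and 21 nt long, and their read counts were set beside each other without a length correction. How fully each sequence was captured in a library was not measured, so orders and ratios between members are those of reads. Each member was listed at 1 porcine hairpin and on its 5′ arm. The files place the hairpin of miR-21 at 37340385 to 37340476 on the plus strand, that of miR-146a-5p at 68394511 to 68394607 on the minus strand and that of miR-146b at 123301746 to 123301850 on the plus strand, on 3 chromosome sequences whose names and genome build are not given in the sources used here. In the RefSeq gene table of assembly Sscrofa11.1, the nearest named protein-coding genes on either side are PTRH2 and TUBD1 for MIR21, ATP10B and PTTG1 for MIR146A, and CUEDC2 and MFSD13A for MIR146B.

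The depth of the libraries D63, D98 and D161 was 1464699, 2418187 and 2242716 listed reads. Porcine mature names numbered 261, 266 and 264 in the 3 libraries. Levels are given as normalised reads, the count divided by a library factor that makes the typical porcine miRNA equal between libraries. One muscle miRNA, ssc-miR-133a-3p, held 43.3%, 36.2% and 44.0% of all reads over its hairpins, and the levels of other miRNAs depend on whether its share enters the scale.

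ssc-miR-21 was the most abundant of the 3 at every age. It had 6789 counts at 63 d, 15735 at 98 d and 10419 at 161 d, which is 9764, 11193 and 9938 normalised reads. Its place among the 276 porcine miRNAs was the 21st, 18th and 19th. Places by level count each name at 1 hairpin, so the 37 names listed at several hairpins may stand lower than by all their reads. It held 0.464% of all listed reads in D63 (95% Wilson interval 0.453 to 0.475), 0.651% in D98 (0.641 to 0.661) and 0.465% in D161 (0.456 to 0.474). The 98 d library was the highest, and the libraries of 63 and 161 d had the same share within counting error.

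ssc-miR-146a-5p stood about an order of magnitude lower. It had 722, 2279.5 and 1072 counts at 63, 98 and 161 d, where a decimal arises because a read that fits several hairpins is divided between them. On the normalised scale this was 1038, 1622 and 1022 reads, places 69, 56 and 71 among the porcine miRNAs. The order of the libraries was that of miR-21, with 98 d highest and 63 and 161 d within counting error of each other.

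ssc-miR-146b was the least abundant, with 71, 237.5 and 187 counts at 63, 98 and 161 d. Its levels were 102, 169 and 178 normalised reads, and its places were 160, 137 and 128. Here 63 d was the lowest library, while 98 and 161 d could not be told apart at this depth. The order miR-21, miR-146a-5p, miR-146b held in all 3 libraries with intervals that did not overlap.

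**Figure D1:**
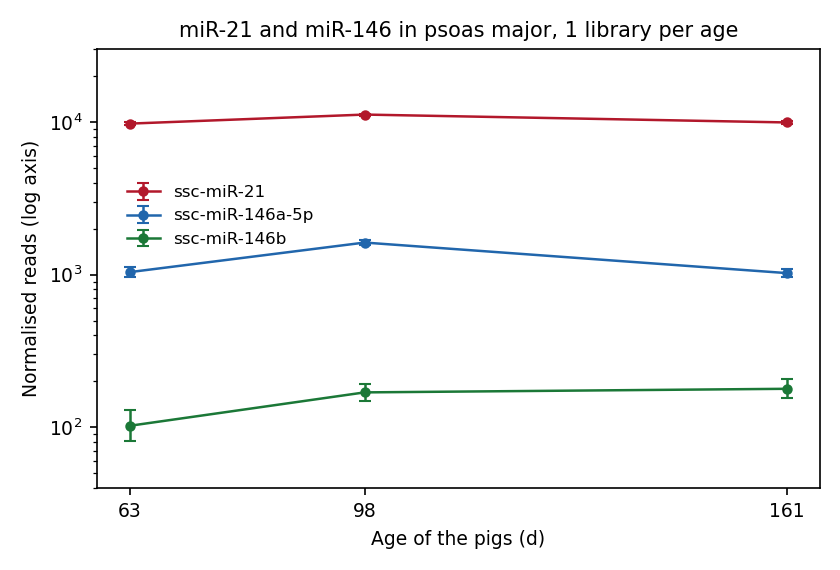
Normalised reads (log axis) of ssc-miR-21, ssc-miR-146a-5p and ssc-miR-146b against the age of the pigs in days; points are single libraries, bars are 95% Wilson intervals for counting error, and lines only join the points of 1 miRNA. The lines keep their order. miR-21 is 6.90 to 9.72 times miR-146a-5p, and miR-146a-5p is 5.73 to 10.2 times miR-146b, least at 161 d. miR-21 and miR-146a-5p are highest at 98 d, and miR-146b goes from 102 at 63 d to 169 and 178.

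From 63 to 98 d all 3 members were higher in the later library. The fold, later over earlier age, was 1.15 for miR-21 (95% Clopper-Pearson interval 1.11 to 1.18), 1.56 for miR-146a-5p (1.44 to 1.70) and 1.65 for miR-146b (1.27 to 2.19). Set against every porcine miRNA with a mean of at least 10 counts in the pair, these folds were the 89th, 38th and 28th highest of 227, a place that does not depend on the scaling. On this scale none of the 3 passed a fold of 2, the limit the study used, whereas 31 of the 227 lay above 2 or below 0.5 (13.7%, 11 higher and 20 lower). The whole interval of each member was above 1, but it says only that the 2 libraries differ by more than read counting.

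From 98 to 161 d the miR-146 letters went apart. miR-146a-5p had a fold of 0.63 (0.586 to 0.678), the 207th highest of 234, and miR-146b had a fold of 1.06 (0.865 to 1.28), the 105th. miR-21 lay between them at 0.888 (0.866 to 0.910), the 152nd. On this scale no member passed the limit in this pair, and 25 of the 234 porcine miRNAs did (10.7%, 12 higher and 13 lower).

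Over the whole period from 63 to 161 d, miR-21 and miR-146a-5p were back at their first level on this scale. Their folds were 1.02 (0.987 to 1.05) and 0.985 (0.895 to 1.08), near the median fold of 0.997 over the 226 miRNAs compared. miR-146b had a fold of 1.75 (1.32 to 2.33) and the 26th highest place. On this scale it too stayed inside the limit that 39 of the 226 passed (17.3%, 15 higher and 24 lower).

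**Figure D2:**
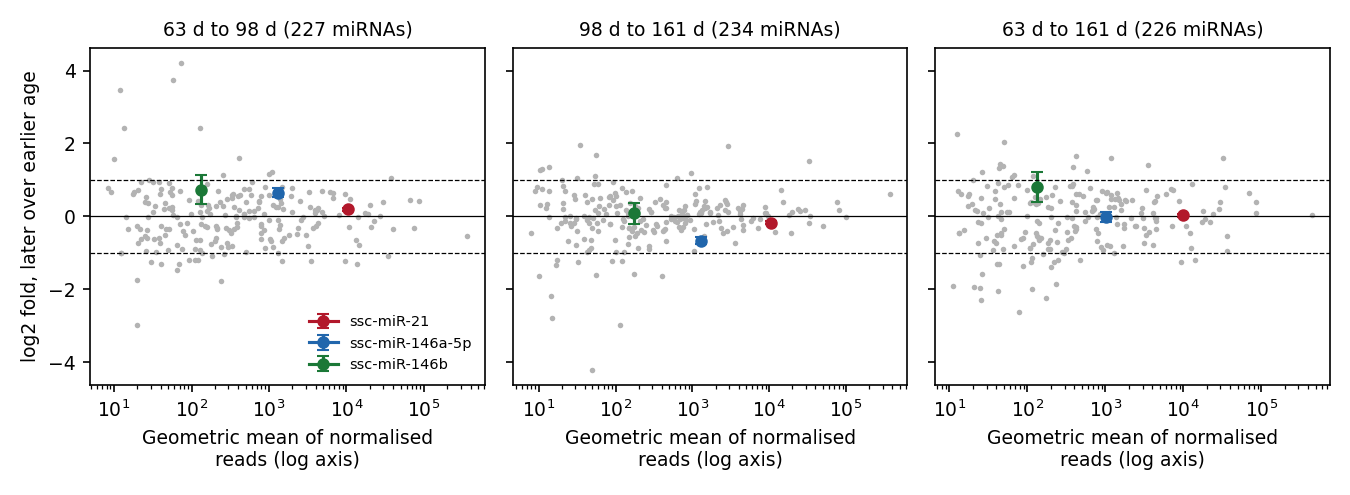
log2 fold, later over earlier age, against the geometric mean of the normalised reads of both libraries (log axis) for every porcine miRNA compared (grey) in 3 pairs of ages; coloured points are the members with 95% intervals for counting error, and dashed lines mark folds of 2 and 0.5. All members lie between the dashed lines in all pairs, and miR-146b at 63 to 161 d and miR-146a-5p and miR-146b at 63 to 98 d lie in the upper part of the cloud.

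These folds rest on the scale. When counts were divided by all listed reads instead, the median porcine miRNA moved by 0.30 on the log2 scale from 63 to 98 d and by -0.31 from 98 to 161 d, and the folds of the members moved with it. miR-21 then had folds of 1.40 and 0.714 in those pairs, miR-146a-5p 1.91 and 0.507, and miR-146b 2.03 and 0.849, of which the fold of 2.03 passed the limit and that of 0.849 lay on the other side of 1 from 1.06. The calls over all porcine miRNAs turned from 11 higher and 20 lower to 28 and 7 in the first pair, and from 12 and 13 to 5 and 25 in the second. From 63 to 161 d the same change of scale left the folds at 1.00, 0.970 and 1.72. Counts were also divided by the total of clean reads that the study reports for each library, which is not the scale of its normalised values. All 3 members then passed the limit from 63 to 98 d, with folds of 2.07, 2.81 and 2.98. In all, 95 of the 227 miRNAs passed it (94 higher and 1 lower), and the median of the 227 was 1.82. On that scale miR-146a-5p passed the limit from 98 to 161 d at 0.424, beside 3 miRNAs higher and 40 lower in all. miR-146b passed it from 63 to 161 d at 2.11, beside 32 higher and 14 lower. In that pair miR-21 had 1.23 (1.19 to 1.27) and miR-146a-5p 1.19 (1.08 to 1.31), beside a median of 1.21. Library factors from the study's own normalised values, added after seeing the data, gave 1.29, 1.76 and 1.87 from 63 to 98 d, none past the limit. From 63 to 161 d they gave 1.15 (1.11 to 1.18) for miR-21, 1.11 (1.01 to 1.22) for miR-146a-5p and 1.97 for miR-146b. The weighted trimmed mean of edgeR, which like the first scale discounts the most abundant miRNAs, gave 1.14, 1.55 and 1.65 from 63 to 98 d.

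Ratios between members within a library need no scale. For each read of miR-146a-5p there were 9.40 reads of miR-21 at 63 d, 6.90 at 98 d and 9.72 at 161 d. The 98 d library thus had more miR-146a-5p relative to miR-21 than either of the others. miR-146a-5p and miR-146b together made up 10.5% of the reads of all 3 members in D63 (95% Wilson interval 9.79 to 11.2), 13.8% in D98 (13.3 to 14.3) and 10.8% in D161 (10.2 to 11.4).

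Within the miR-146 reads the balance of the letters differed at the last age. miR-146b made up 8.95% of the reads of both letters in D63 (7.16 to 11.1) and 9.44% in D98 (8.37 to 10.7), and 14.9% in D161 (13.0 to 16.9). The interval at 161 d lay above those of the other ages, which overlapped. Expressed as a ratio, there were 10.2, 9.60 and 5.73 reads of miR-146a-5p per read of miR-146b.

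The larger share of miR-146b at 161 d was in its variant reads. The files name a representative read for each miRNA and give its copies apart from all reads of the arm. For miR-146a-5p and miR-21 that read was the known mature form printed above. For miR-146b it was a read of 24 nt, 3 bases longer than the known form at its 3′ end, and the added bases follow in the pig hairpin, whose stretch is shown with the known form in capitals.
miR-146b, representative read: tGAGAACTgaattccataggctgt
miR-146b, hairpin stretch: tcTGAGAACTGAATTCCATAGGCtgtga
This read had 43, 134 and 73 copies at 63, 98 and 161 d, which is 60.6% of the reads of miR-146b in D63 (48.9 to 71.1), 56.4% in D98 (50.0 to 62.5) and 39.0% in D161 (32.3 to 46.2). The share at 161 d was lower than at 63 and 98 d beyond counting error. Among the representative reads alone, miR-146b was 8.32%, 8.19% and 9.47% of both letters, with intervals that overlapped (6.23 to 11.0, 6.96 to 9.62 and 7.60 to 11.7). Among all other reads it was 10.1% in D63 (7.11 to 14.3), 11.7% in D98 (9.84 to 14.1) and 23.4% in D161 (19.8 to 27.3). With representative reads alone the fold of miR-146b from 63 to 161 d was 1.13 (0.768 to 1.69) in place of 1.75, and from 98 to 161 d it was 0.751 (0.557 to 1.01) in place of 1.06. The ends and lengths of the variant reads were not analysed here.

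**Figure D3:**
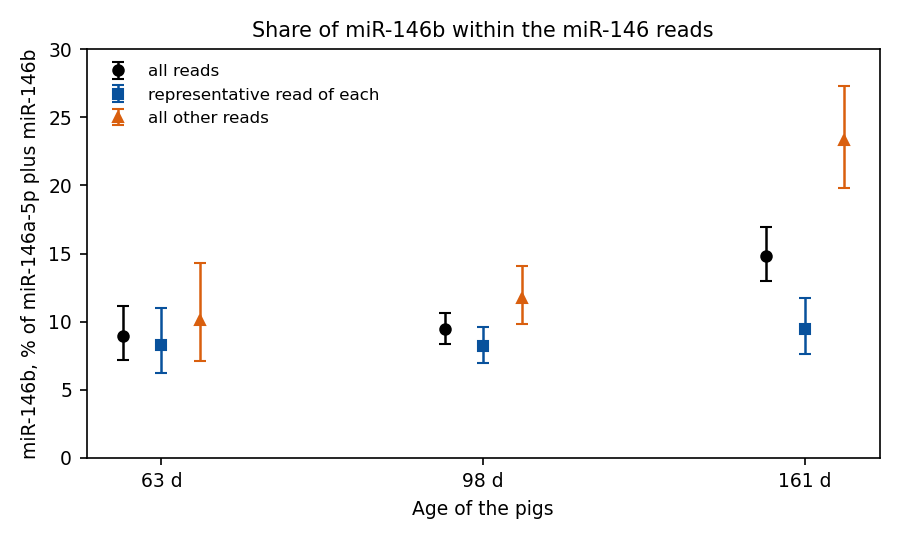
Share of miR-146b in the reads of miR-146a-5p plus miR-146b, in percent, at 3 ages, for all reads, for the representative read of each and for all other reads; points are single libraries and bars are 95% Wilson intervals for counting error. The shares by representative reads overlap at 8.32%, 8.19% and 9.47%, and the share by other reads reaches 23.4% at 161 d.

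The representative reads of the other members had steadier shares. The representative read of miR-146a-5p had 474, 1502 and 698 copies, 65.7%, 65.9% and 65.1% of its reads, with overlapping intervals (62.1 to 69.0, 63.9 to 67.8 and 62.2 to 67.9). That of miR-21 had 2490, 5472 and 3730 copies, 36.7%, 34.8% and 35.8% (35.5 to 37.8, 34.0 to 35.5 and 34.9 to 36.7), and its share in D98 lay below that in D63 by more than counting error. More of the miR-21 reads were thus variants than of miR-146a-5p at every age, most of them without a mapping error (46.9%, 48.0% and 46.6% of all its reads). Such reads match the pig hairpin with other ends than the representative read.

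Reads with a mapping error, a mismatch to the pig sequence, were most frequent in miR-146a-5p. They made up 22.7%, 24.5% and 23.9% of its reads, against 16.4%, 17.2% and 17.6% for miR-21 and 9.86%, 9.05% and 12.8% for miR-146b. The median over the porcine miRNAs with at least 100 reads was 15.8%, 15.5% and 15.7% (151, 169 and 160 miRNAs). miR-146a-5p stood above that median and miR-146b below it in all 3 libraries.

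**Figure D4:**
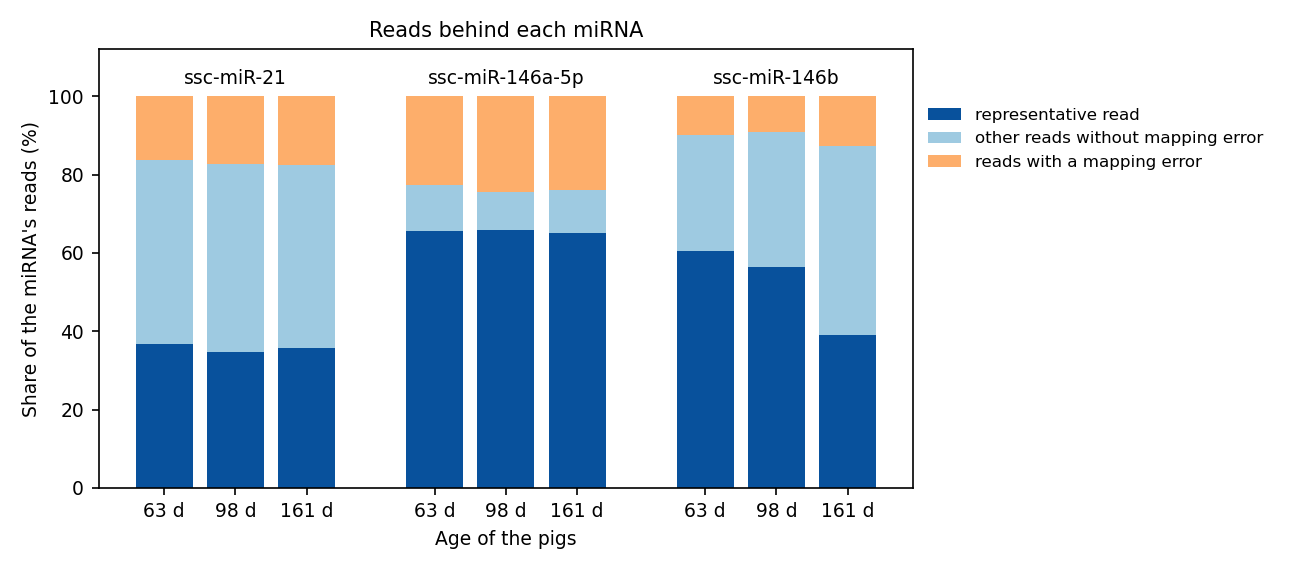
Share of the reads of each member, in percent, that were the representative read, other reads without a mapping error, or reads with a mapping error, at 63, 98 and 161 d; each bar is 1 library. The representative read of miR-146b goes from 60.6% to 39.0%, while that of miR-21 stays between 34.8% and 36.7% and that of miR-146a-5p between 65.1% and 65.9%.

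More reads of miR-146a carried an added base at the 3′ end, and the files list them under the mouse name mmu-miR-146a-5p. They are shown because they extend the known form by an A that the pig hairpin does not have. The hairpin stretch is given with the known form in capitals, and the longer read with the seed and the added base in capitals.
miR-146a, hairpin stretch: ttTGAGAACTGAATTCCATGGGTTgtgtc
miR-146a, longer read: tGAGAACTgaattccatgggttA
At position 23 of the read, counted from its 5′ end, the difference from the hairpin is G23A. The longer read had 123, 360 and 119 copies at 63, 98 and 161 d. With further reads that the files place at no pig locus, the mouse name held 190, 606 and 209 reads, of which 0, 1 and 0 were without a mapping error. They made up 20.8% of all miR-146a reads in D63 (95% Wilson interval 18.3 to 23.6), 21% in D98 (19.6 to 22.5) and 16.3% in D161 (14.4 to 18.4). The share at 161 d lay below that at 98 d, and its interval just met that of 63 d. With these reads added, the folds of miR-146a-5p were 1.56, 0.595 and 0.931 from 63 to 98 d, 98 to 161 d and 63 to 161 d. The files place the longer read at 2 loci of 1 chromosome sequence, 93574 bases apart on opposite strands, with the same listed sequence of 77 bases at both. Only 1 of these loci overlaps the hairpin of ssc-miR-146a-5p, and the porcine name is listed at that one alone.

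The opposite arms of the members' hairpins were rare. The 3′ arm of the miR-21 hairpin, listed under the cattle name bta-miR-21-3p, had 26, 55 and 55 reads at 63, 98 and 161 d, 0.382%, 0.348% and 0.525% of the reads of both arms (0.260 to 0.558, 0.268 to 0.453 and 0.404 to 0.683). The share was highest at 161 d, and the difference between libraries was not tested. For miR-146b the 3′ arm had 2 reads at 161 d, below the floor of 3 counts. At the miR-146a hairpin no opposite arm was listed, which allows up to 0.416%, 0.132% and 0.280% of the 5′ arm count.

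Few other listed miRNAs had the seed of a member. eca-miR-590-5p, a horse name with the seed of miR-21, had 3, 7 and 6 reads. A 19 nt read under the mouse name mmu-miR-21c had 1 read at 98 d. The marsupial hairpin name sha-mir-716b-p3 is no miR-146 name. A representative read under it at 161 d, with 205 copies, had the seed letters of miR-146. The representative reads of miR-146a-5p and miR-146b had 698 and 73 copies in that library. The sha-mir-716b-p3 entry held 2285 reads in all, and the seed letters of those other than the representative read were not checked. At another locus, entries of that name with the same seed letters had 2 counts at 98 d and 1 at 161 d. Entries of that name whose representative read had another seed were not counted here, so its reads at each age are not known in full.

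The porcine miRNAs closest to each member in profile were found by the distance between their log2 normalised levels at the 3 ages, each centred on its own mean, among those with at least 100 counts in every library. Nearest to miR-21, of 139, were ssc-miR-574, ssc-miR-199a-5p, ssc-miR-125b, ssc-miR-98 and ssc-miR-126-3p, at distances of 0.044 to 0.10 against a median of 0.46. They share with it a small excess at 98 d, as in miR-199a-5p with 324, 384 and 318 normalised reads. Nearest to miR-146a-5p were ssc-miR-499-5p, ssc-miR-676-3p, ssc-miR-542-3p, ssc-let-7f and ssc-miR-98, at 0.18 to 0.31 against a median of 0.69. None came as near as the neighbours of the others did, and the nearest, miR-499-5p of slow muscle fibres, had 2177, 2899 and 2128 normalised reads. Nearest to miR-146b, of 140, were ssc-miR-218b, ssc-miR-151-5p, ssc-miR-9, ssc-miR-365-3p and ssc-miR-497, at 0.029 to 0.11 against a median of 0.71, with a low level at 63 d in each, as in miR-9 with 2584, 4101 and 4264. With 3 points a profile has few shapes, and these likenesses are descriptions.

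Leukocyte miRNAs did not share one pattern with the members. Of 6 markers, 5 were listed under a porcine name (miR-223 was not), and their summed level was 2733, 2979 and 2471 normalised reads at 63, 98 and 161 d. The myeloid and lymphoid miRNA miR-142-5p had 1176, 1628 and 1401, and the lymphocyte miRNA miR-150 had 977, 749 and 614. miR-155-5p, which NF-kB induces in activated leukocytes, had 188, 231 and 220. From 63 to 98 d the folds of the 5 markers ran from 0.767 to 1.38 with a median of 1.17, all below those of miR-146a-5p and miR-146b. From 98 to 161 d all 5 were below 1 (0.508 to 0.953, median 0.82), as were miR-146a-5p and miR-21 but not miR-146b. From 63 to 161 d the median was 0.629 (0.596 to 1.19). No marker passed the limit in any pair, beside 13.7%, 10.7% and 17.3% of all porcine miRNAs, and a count of 0 in 5 says little. The part of these markers in the levels of the members was not tested.

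Markers of connective tissue, vessels and blood were present in all libraries. The 7 fibroblast and matrix related miRNAs found (miR-199b-3p was not listed) summed to 8014, 8798 and 9102 normalised reads. Their median folds were 1.19, 1.11 and 1.37 in the pairs 63 to 98 d, 98 to 161 d and 63 to 161 d. None passed the limit, beside 13.7%, 10.7% and 17.3% of all porcine miRNAs, and a count of 0 in 7 says little. The endothelial pair miR-126-3p and miR-126-5p summed to 12288, 16804 and 14458. The red cell miRNAs miR-451 and miR-144 summed to 1701, 2565 and 2287. The leukocyte, endothelial and red cell sums were all highest at 98 d, like miR-21 and miR-146a-5p, and the fibroblast and matrix related sum was highest at 161 d. The part of these markers in the members' levels was not tested.

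The labelled tissue was plain in the data. The 6 muscle fibre miRNAs were all listed and summed to 473652, 365599 and 507800 normalised reads. Most of this sum was miR-133a-3p, with 437489, 298867 and 452621. miR-1, miR-206, miR-208b and miR-499-5p were each highest at 98 d, and miR-133a-3p and miR-133b were lowest there. The median folds of the 6 were 1.25, 0.868 and 1.05 in the pairs 63 to 98 d, 98 to 161 d and 63 to 161 d. Of the 6, 1, miR-1, passed the limit, at 2.09 from 63 to 98 d, where 13.7% of all porcine miRNAs passed it. Of 8 epithelial and liver miRNAs only miR-122 and miR-192 were listed under the names searched, and other miRNAs of these tissues were not searched. The search for miR-194 did not cover its lettered porcine name ssc-miR-194b-5p, which had 2.5, 56 and 6 counts at 63, 98 and 161 d. The liver miRNA miR-122 had 11, 297 and 12 counts and miR-192 had 39, 426.5 and 106, so that the 98 d library, in which miR-21 and miR-146a-5p were highest, also stood apart in these. Their part in the members' levels was not tested, and with 1 library per age, the age and the library cannot be told apart.

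**Figure D5:**
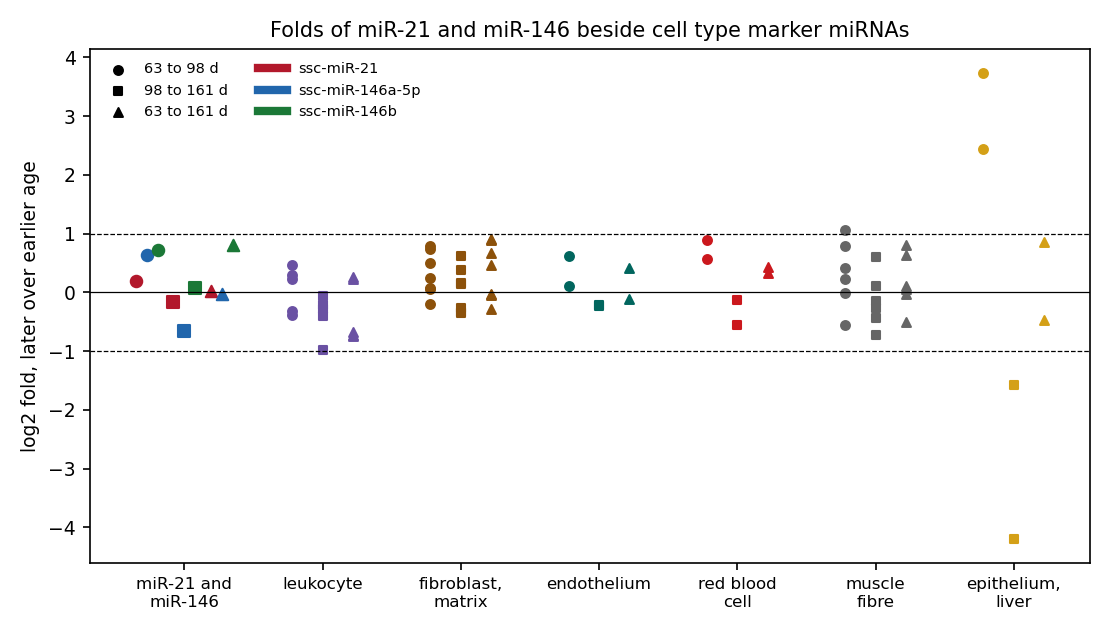
log2 fold, later over earlier age, of the members and of marker miRNAs of 6 cell types; each point is 1 miRNA in 1 pair of ages, circles 63 to 98 d, squares 98 to 161 d and triangles 63 to 161 d, and dashed lines mark folds of 2 and 0.5. The members lie within the lines, as do the leukocyte, matrix, vessel and red cell markers, while miR-122 and miR-192 lie far outside in both pairs that include 98 d. Over all porcine miRNAs, 13.7% from 63 to 98 d, 10.7% from 98 to 161 d and 17.3% from 63 to 161 d lay outside the lines.

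Other miRNAs tied to the same pathways had median folds near 1. For NF-kB or Toll-like receptor signalling, 8 of 9 listed miRNAs were found (miR-147 was not), as 9 mature names. Of those with enough counts, 0 of 9, 0 of 9 and 0 of 8 passed the limit in the pairs 63 to 98 d, 98 to 161 d and 63 to 161 d, and their median folds were 1.12, 1.04 and 1.02. Over all porcine miRNAs 13.7%, 10.7% and 17.3% passed it, so that a count of 0 in a group of this size says little. Over all porcine miRNAs the medians were 1.01, 1.01 and 0.997. The folds of the group from 63 to 98 d ran from 0.633 to 1.59. miR-146a-5p lay inside this range. miR-146b lay above it at 1.65, but its counting interval (1.27 to 2.19) reached into the range. For TGF-beta signalling or fibrosis, all 13 listed miRNAs were found, as 22 mature names, with median folds of 1.02, 1.11 and 1.08. In each pair 1 of the 22 was above 2 and 1 below 0.5, a share not above the 13.7%, 10.7% and 17.3% of all porcine miRNAs. The miR-29 family, which represses collagen genes, was in this group: miR-29a had 846, 877 and 1344 normalised reads, miR-29b 30.9, 51.8 and 57.9, and miR-29c 281, 398 and 518. From 63 to 161 d its folds were 1.59, 1.87 and 1.84, beside 1.75 for miR-146b and 1.02 for miR-21. The group as a whole did not share this direction: 14 of the 22 were above 1 and 8 below, among them miR-214 at 0.820, miR-199a-3p at 0.966 and miR-30c-3p at 0.545.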

How the data were processed

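Small RNA of pig psoas major was sequenced by the authors in 3 libraries, 1 per age, which the labels map to 63, 98 and 161 d. Per the labels and the methods, the authors made 1 file per library with ACGT101-miR 4.2 from reads mapped to miRBase 20.0 hairpins and the pig genome. The genome build is not given in the sources used here. The deposited files hold counts, the copies of each representative read, and expected counts, the reads of an arm divided between the hairpins they fit, both without normalization.

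Expected counts of 276 porcine names were used, each at the 1 hairpin listed in most libraries. In the 63 d file 139 rows lack a name and took the name of the same sequence or of the listed miRNA. Library factors were medians of ratios over the 250 names counted in every library. Fold intervals are conditional binomial (Clopper-Pearson), on counts rounded to whole numbers, and shares have Wilson intervals, all at 95% and for counting error only. The limit was a fold of 2 or 0.5 at a mean of at least 10 counts. The functions were tested on simulated data.

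Named were all members, miRNAs with their seeds, the 5 nearest profiles of each and defining markers of the lists. The members and lists were chosen with earlier results of these data known. Python 3.11.15, scipy 1.17.1, R 4.3.3 and edgeR 4.0.16 were used. Alternatives covered scaling, filters, hairpins and reads.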

Additional observations from a re-analysis of the deposited data

Results flagged for a closer look

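Some reads lay outside the counts of the members. The 3′ arm of the miR-21 hairpin had 26, 55 and 55 reads at 63, 98 and 161 d, above the 3 counts that a count of 0 allows. Its representative read matched the pig hairpin at 98 d (17 copies), and at 63 and 161 d (9 and 14 copies) it carried G6C, with the base of the hairpin first and positions counted from the 5′ end of the read. Reads of miR-146a under the mouse name numbered 190, 606 and 209 at the same ages.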

How the results depend on the processing

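Each age was 1 library, so no replicate could be left out. No paired analysis was possible because each age had 1 library. The trimmed mean of edgeR, the sum over hairpins, a pseudocount of 1 and the reads of the mouse name added left every fold of the members inside its own interval. As shares of all listed reads, miR-21 had folds of 1.40 from 63 to 98 d and 0.714 from 98 to 161 d, miR-146a-5p 1.91 and 0.507, and miR-146b 0.849 from 98 to 161 d. Per clean read of the library, as the study counts them, the folds were 2.07, 2.81 and 2.98 for miR-21, miR-146a-5p and miR-146b from 63 to 98 d, 0.596, 0.424 and 0.709 from 98 to 161 d, and 1.23, 1.19 and 2.11 from 63 to 161 d. On that scale the median of all porcine miRNAs was itself at 1.82, 0.676 and 1.21 in these pairs of ages, and 95, 43 and 46 miRNAs passed the limit. Library factors of the study, added after seeing the data, gave 1.29 and 1.76 for miR-21 and miR-146a-5p from 63 to 98 d, and 1.15 and 1.11 from 63 to 161 d. Scaling over miRNAs with a mean of at least 100 counts, also added later, gave 1.11 for miR-21 from 63 to 98 d, as did reads without mapping errors. Representative reads alone gave 1.07 and 0.939 for miR-21 in the first and second pairs, and 0.751 and 1.13 for miR-146b from 98 to 161 d and 63 to 161 d. With at least 100 counts, fewer miRNAs were compared and 19, 10 and 18 passed the limit, and over all known names 68, 55 and 90 did. Of reads under porcine names, miR-21 held 0.514%, 0.715% and 0.509% and miR-146a-5p 0.0547%, 0.104% and 0.0524%. The direction of the folds of miR-146b from 98 to 161 d and of miR-146a-5p from 63 to 161 d changed with the setting, and that of the other 7 did not. Beyond the construction of each setting, the cause was not tested. Depth limited miR-146b most, with 71 counts at 63 d.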
